A study of Drosophila melanogaster with 22 samples.

Results

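The mitochondrial ribosomal protein genes of Drosophila were taken as every gene whose symbol begins with mRpL or mRpS followed by a digit, and 73 of the 15339 genes in the deposited tables met that rule. By the letter L or S in the symbol alone, 47 were assigned to the large ribosomal subunit and 26 to the small subunit. By their numbers, 45 were taken to have a relative in the bacterial ribosome and 28 to be specific to mitochondria. The place of single proteins in the ribosome was not checked. One of them, mRpL47, stands in the deposited TPM table under the symbol Rlc1 and was matched by its row name; another gene of that symbol overlaps it on the same strand. The mitoribosomal genes tko and bonsai, whose symbols lie outside the pattern, were kept as comparison genes.

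The 22 RNA-seq libraries were made from larval brain cells carrying GFP, which were collected by robot after enzymatic dissociation of brains from 30 larvae. Neuroblasts, the dividing stem cells of the fly brain, were sampled in 3 libraries each as a pool over all lineages, from the mushroom body, from the antennal lobe and as type II, a class that amplifies through intermediate progenitors. Mushroom body neuroblasts were also sampled in 3 libraries after a 2 h wait and in 3 after 3 washes, and all 18 neuroblast libraries are from larvae 50 h after hatching. The 2 neuron and 2 glia libraries came from wandering larvae, so larval age and cell type cannot be told apart. The sources used here do not give genotypes, strains, GFP drivers or the details of either handling step. They also do not say that replicates are separate preparations, so p-values measure the spread between these libraries, which may be technical. Pool sizes ran from 47 to 124 cells, and the total of gene counts from 3150371 to 14282246 per library.

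Mitochondria carry their own ribosomes, which translate the few messages of the mitochondrial genome, chiefly subunits of the respiratory chain and of ATP synthase. All proteins of this ribosome are encoded in the nucleus, made on cytoplasmic ribosomes and imported. Only their transcripts were measured here, and not the proteins, the ribosomes or mitochondrial translation. In fly neuroblasts oxidative phosphorylation is known to bear on proliferation and on the end of the stem cell stage.

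The labels were checked against marker genes before the results. The 6 neuroblast markers summed to 1583 to 3058 TPM (a transcript level per length, scaled to the same total in each library) in neuroblast libraries and to 7.24 to 9.66 TPM in neurons. The 6 neuron markers summed to 3149 to 4217 TPM in neurons, and the 6 glia markers to 1622 to 2099 TPM in glia. Glia markers also summed to 227 to 431 TPM in neuroblasts and 264 to 326 TPM in neurons. The glia libraries also held neuroblast markers at 81.1 to 363 TPM, and 3 of the 5 fat body markers had counts there, with a sum of 387 to 1297 TPM against at most 13.3 TPM in every other group. Their part in the glia results below was not tested. In bulk pools, fewer cells of a type and less RNA per cell cannot be told apart.

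The 73 genes together took up a small share of the transcriptome, which was largest in pooled neuroblasts and smallest in glia. Their summed level in pooled neuroblasts was 3793, 5191 and 4336 TPM in the 3 libraries. Mushroom body neuroblasts gave 4078, 4141 and 3150 TPM, and type II neuroblasts 3766, 3709 and 4699 TPM. These ranges overlapped one another. In antennal lobe neuroblasts the sum was 2498, 2822 and 2733 TPM, below every other neuroblast library, of which the lowest stood at 3116 TPM. Neurons gave 2670 and 2574 TPM, inside the range of the antennal lobe libraries. Glia gave 1265 and 1393 TPM, below all others. As ratios to the mean of pooled neuroblasts, the group means were 0.914 for type II, 0.853 for mushroom body, 0.605 for antennal lobe, 0.591 for neurons and 0.299 for glia. Leaving out a pooled neuroblast or any other single library moved the antennal lobe ratio between 0.563 and 0.660 and the glia ratio between 0.279 and 0.327. The noncoding genes CR41602 and CR40677 held a varying share of the counts, 31.9% in the first neuron library and 11.8% in the second. With them taken out of the total, the neuron ratio was 0.70 and the glia ratio 0.375. The neuron sums were then 4397 and 3113 TPM. The first lay above the antennal lobe libraries (3028 to 3343 TPM) and inside the mushroom body range (3812 to 4805 TPM), so the likeness of neurons to the antennal lobe depended on the total used.

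**Figure D1:**
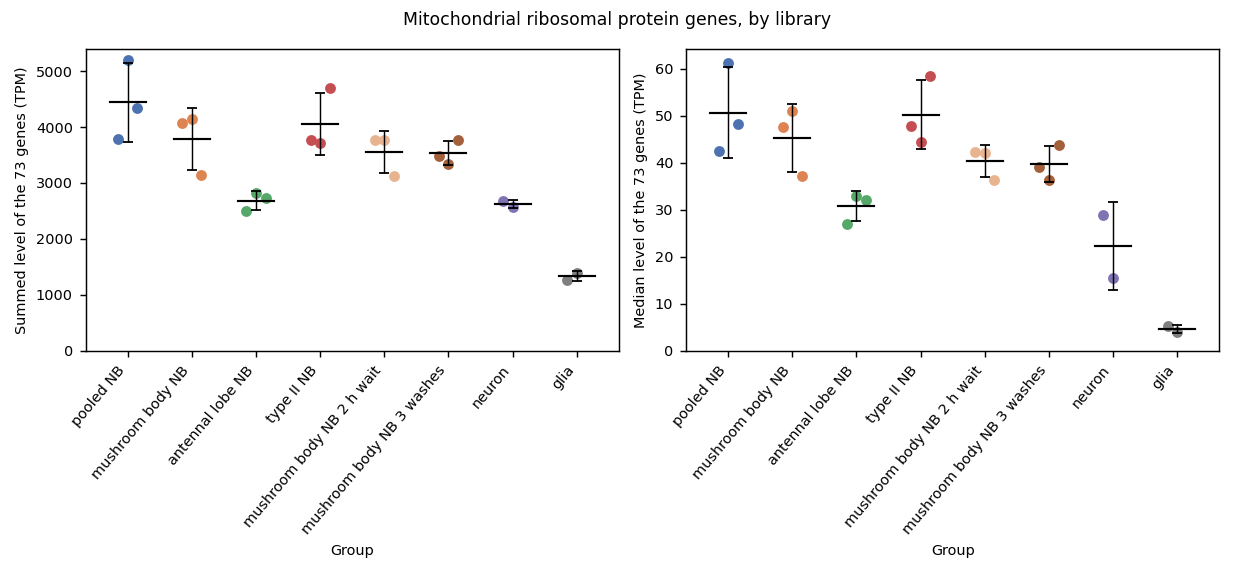
Summed level (left) and median level (right) of the 73 mitochondrial ribosomal protein genes in TPM for each of 22 libraries in 8 groups; NB stands for neuroblast, points are libraries, horizontal lines group means and error bars the SD. The antennal lobe libraries (2498 to 2822 TPM) lie below all other neuroblast libraries, and the glia libraries (1265 and 1393 TPM) lie lowest.

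Scaled by the spiked-in ERCC RNA and the number of cells, which measures counts per cell and not a share, the order of the neuroblast groups was different. With the mean of the neuron libraries set to 1, the summed counts of the 73 genes per cell stood at 5.40 ± 0.921 (SD, n = 3) in pooled neuroblasts, 2.98 ± 0.708 in mushroom body neuroblasts and 2.84 ± 0.222 in antennal lobe neuroblasts. Type II neuroblasts stood at 9.03 ± 5.05 (SD, n = 3), with their first library at 14.8 and the others at 5.46 and 6.81. Glia stood at 0.173 ± 0.0294 (SD, n = 2). On this scale the mushroom body libraries (2.40 to 3.77) and antennal lobe libraries (2.68 to 3.10) overlapped, whereas as a share of the transcriptome they did not.

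The balance of the subunits was narrow in neuroblasts. The summed level of the mRpL genes was 1.51 to 2.36 times that of the mRpS genes over the 18 neuroblast libraries, with a median of 1.83. In neurons this ratio was 2.25 and 1.15, and in glia 2.69 and 0.814, so in both of these cell types the 2 libraries lay further apart than any neuroblast replicates did. The median gene stood at 27.1 to 61.3 TPM in neuroblast libraries, at 28.9 and 15.6 TPM in neurons and at 5.28 and 4.0 TPM in glia.

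Among single genes, mRpL55, a mitochondrion-specific protein of the large subunit, had the highest mean over the 8 groups. In the 18 neuroblast libraries it ranged from 64.1 to 226 TPM with a median of 144 TPM. It stood at 156 and 85.8 TPM in neurons and at 4.72 and 2.20 TPM in glia. Next came mRpL35, mRpL9, mRpS18A, mRpL36 and mRpS7, which with mRpL55 had group means over all 8 groups averaging between 77.2 and 128 TPM. The lowest were mRpS18C, mRpL48, mRpS22, mRpS17, mRpL47 and mRpL53, the first 5 of which averaged between 8.27 and 22 TPM. The related genes mRpS18A and mRpS18C, which encode variants of the same bacterial protein, thus sat at opposite ends of the order, with means of 93.1 and 22 TPM.

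The gene mRpL53 (FBgn0050481, chromosome 2R, 9841700 to 9843169 in dm3) had no count in any of the 22 libraries. It overlaps CG33155 on its own strand and AGO1 on the other, and whether its reads were lost to these neighbours was not tested. With that gene set aside, all other members had counts in each of the 18 neuroblast libraries, and 56 of the 73 exceeded 10 TPM in all 18. In the 3 pooled neuroblast libraries 71 exceeded that level, in both neuron libraries 39, and in both glia libraries 10.

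**Figure D2:**
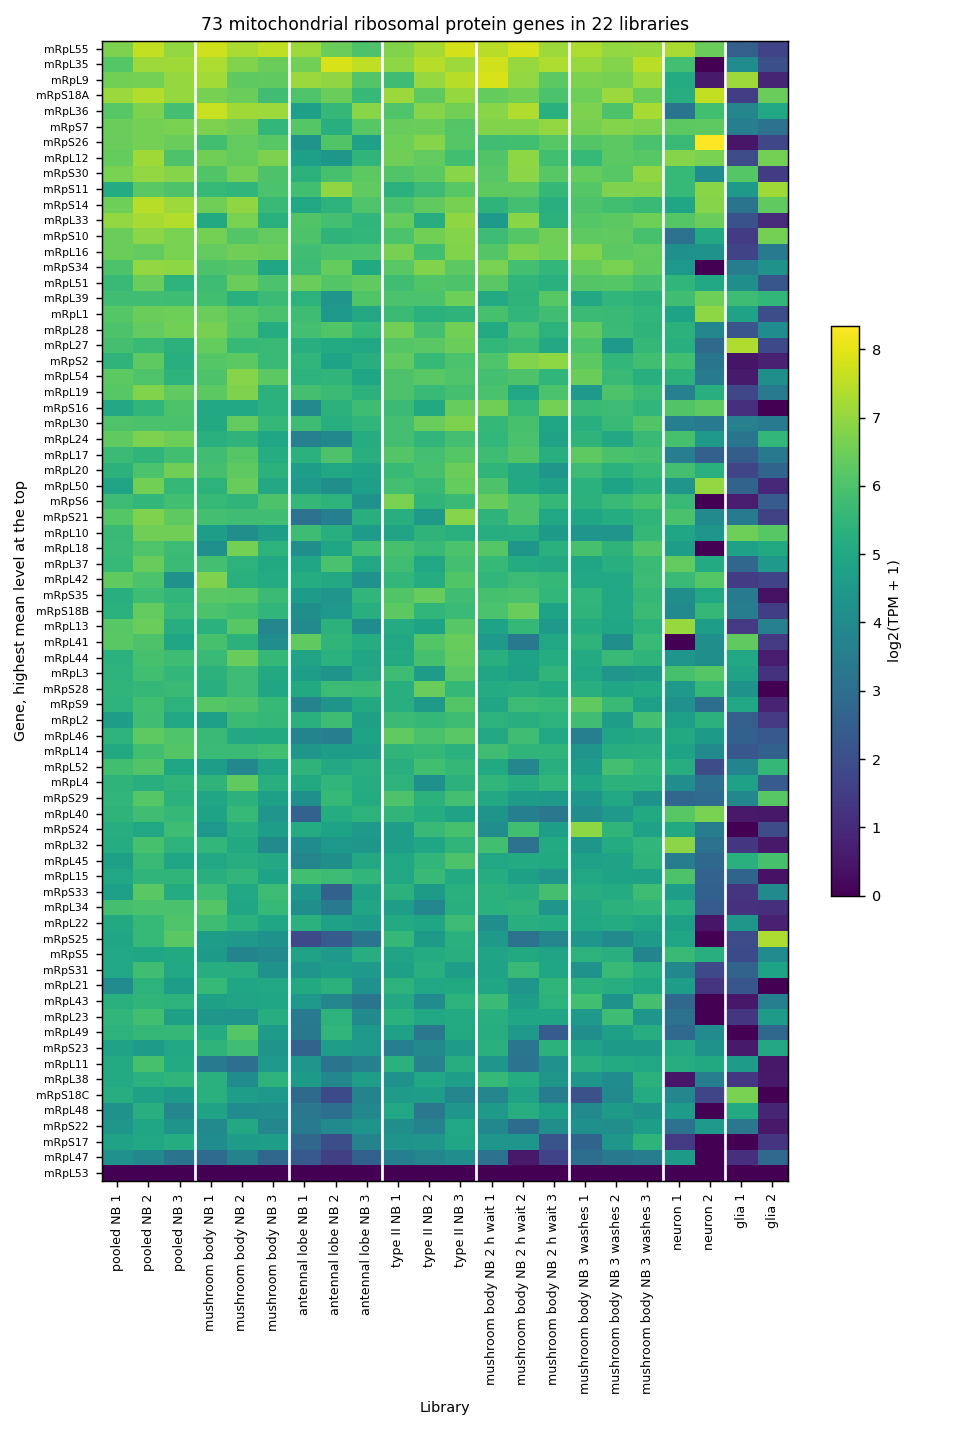
Level of each of the 73 genes (rows, highest mean at the top) in the 22 libraries (columns, white lines between groups) as log2(TPM + 1); NB stands for neuroblast. Levels also vary among neuroblast columns, as in mRpS25 (2.62 to 72.2 TPM), and some genes are high in 1 and low in the other of the 2 neuron or the 2 glia libraries; mRpL53 is at 0 in all columns.

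The members are short genes in crowded places. Their median span was 824 bases against 2086 bases for the 13150 protein-coding genes with a count, and their median GC content 48.3% against 46.0%. A gene on the opposite strand overlapped 37 of the 73 (50.7%), against 27.2% of coding genes, and 40 (54.8%) had a neighbour starting within 500 bases in the divergent direction, against 21.6%. For the cytoplasmic ribosomal protein genes the latter share was 30.4%. They lie on all major arms, with 12 on 2L, 12 on 2R, 17 on 3L, 21 on 3R and 11 on X. The sources do not say whether the counting used strand, so the effect of an overlapping partner on the counts of those 37 genes is not known.

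The likeness of replicate libraries differed between cell types. Across the 73 genes, Spearman's rho between replicate libraries of a neuroblast group was 0.596 to 0.769, in neurons 0.375 and in glia -0.01, given as descriptions across genes of libraries of unequal RNA content. In the same glia libraries rho was 0.867 across the 92 cytoplasmic ribosomal protein genes and 0.742 across 27 mitochondrial import genes, but 0.416 across 31 mitochondrial translation genes. In neurons the translation genes gave 0.118, below the members. In glia, 18 members exceeded 10 TPM in the first library alone and 17 in the second alone, 10 in both and 28 in neither. The level of 22 members differed more than 10-fold between the 2 glia libraries with counts in both. The like counts over all genes were not taken, so these counts describe the members alone and set them apart from no other genes. The small-subunit gene mRpS25 stood at 2.77 TPM in the first glia library and 160.3 TPM in the second. In the other direction, mRpS18C stood at 100.1 TPM and 0, mRpL27 at 162 and 2.58 TPM, and mRpL9 at 137 and 0.832 TPM; with mRpS25 these were chosen after their values were seen. The glia pools held 52 and 47 cells and the neuron pools 120 and 74. ERCC-scaled RNA per cell in glia was the lowest of all groups, and the part of cell number and RNA content in this spread was not tested.

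**Figure D3:**
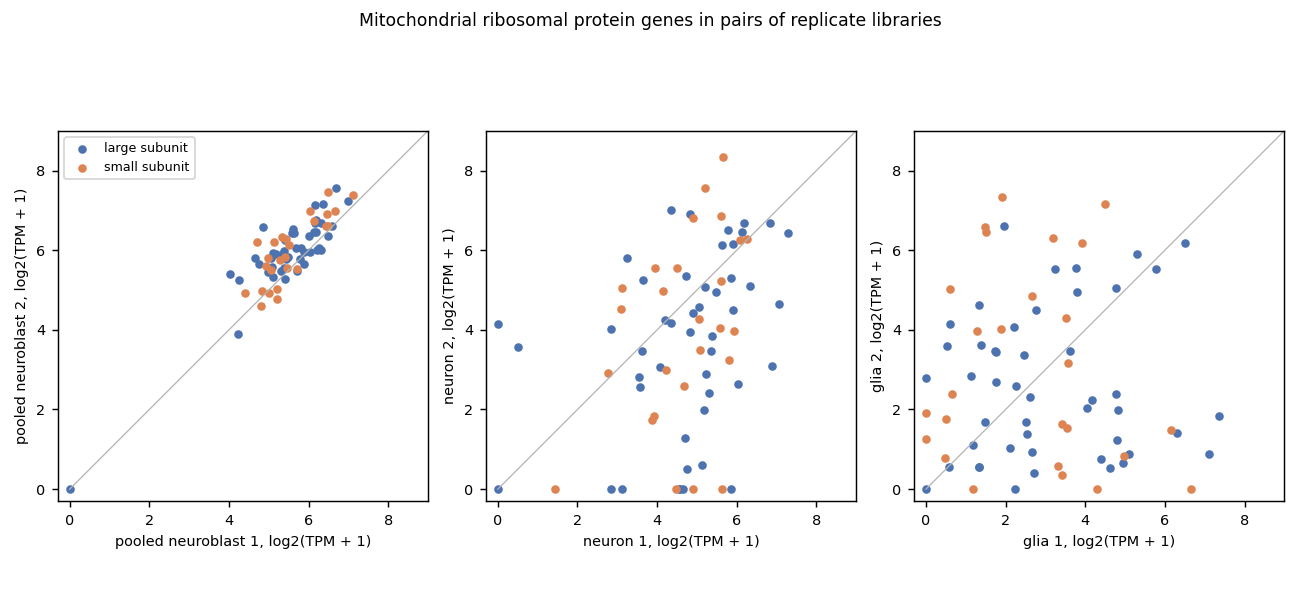
Level of each gene, as log2(TPM + 1), in the first and second replicate library of pooled neuroblasts, neurons and glia; blue points are large-subunit and orange points small-subunit genes, and the grey line marks equal levels. The neuroblast pair shown had the highest Spearman's rho of the neuroblast replicate pairs, 0.769. Its median levels differed, at 42.5 TPM in the first library and 61.3 TPM in the second. Points spread over the whole panel in glia, where Spearman's rho was -0.01.

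The first cell type comparison asked how neuroblasts differ from neurons. Of the 72 members that passed the filter on low counts, none was called with edgeR's quasi-likelihood test at a Benjamini-Hochberg adjusted p below 0.05, while 10.2% of all 9855 genes tested were called higher in neuroblasts and 14.5% lower. The median log2 change of the members, neuroblast minus neuron, was 0.97 against 0.18 for all genes tested, and 56 members had a positive change. Leaving out 1 library moved the members' median between 0.66 and 1.96. An unadjusted p below 0.05 was reached by 4 members, against 38.6% of all genes, and DESeq2 called 6 members higher, against 15.5% of all genes. Both counts lie under the share of all genes. Without the first neuron library the members' median was 1.96 against 0.59 for all genes, and without the second 0.66 against 0.46. In 33 members the neuroblast libraries all lay above the neuron libraries and in 5 below, against 36.3% and 26.6% of all genes.

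The member nearest to the threshold was mRpS29, a GTP-binding protein of the small subunit, named after its values were seen. It stood at 44.3, 69.1 and 40.1 TPM in pooled neuroblasts and at 5.81 and 6.57 TPM in neurons. The groups did not overlap, and the log2 change was 2.96 ± 1.00 (SE, edgeR adjusted p = 0.0609). The fold was largest for mRpS17, at 27.3, 30.3 and 35.3 TPM against 1.69 TPM and 0 (log2 change 5.00 ± 2.04, edgeR adjusted p = 0.106). Some members leaned the other way without passing the test: mRpL40 stood at 42.2, 54.2 and 46.6 TPM in pooled neuroblasts and at 71.0 and 102 TPM in neurons. Among the other mitochondrial lists, 1 of 30 tested translation genes was higher in neuroblasts, CG31739 (AspRS-m, the mitochondrial aspartyl-tRNA synthetase; log2 change 1.3 ± 0.41, edgeR adjusted p = 0.0490). Also higher were 2 of 14 transcription and DNA maintenance genes, CG7175 (mTerf5) and tam, the catalytic subunit of the mitochondrial DNA polymerase. For tam, 450 counts in neuroblasts stood against 1 in neurons, a ratio of 215 after scaling to library size (95% exact counting interval 38.4 to 8511). The calls of CG31739, CG7175 and tam were each lost without any 1 of the 5 libraries (adjusted p up to 0.172, 0.111 and 0.144). One import gene, Tim17b1, was lower, also with any 1 library left out. Of 86 cytoplasmic ribosomal protein genes 17 were higher and none lower.

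The comparison of neuroblasts with glia gave more calls. Of the 72 members, 11 were higher in pooled neuroblasts and none lower, where 7.0% of all genes tested were called higher and 13.6% lower, and the median log2 change was 2.19 against -0.00 for all genes. Leaving out 1 library moved that median between 2.06 and 3.52. The 3 neuroblast libraries all lay above both glia libraries for 55 members and below them for none, against 32.0% and 26.7% of all genes tested. The 11 comprised 7 genes of the large and 4 of the small subunit, of 46 and 26 tested, and 8 of them were among the 36 tested members that overlap no gene on the opposite strand.

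The largest change belonged to mRpL40 (FBgn0037892, chromosome 3R, 7233619 to 7234478 in dm3), a mitochondrion-specific protein of the large subunit. It stood at 42.2, 54.2 and 46.6 TPM in pooled neuroblasts and at 0.496 and 0.461 TPM in glia. Both glia libraries together held 2 counts of it against 345 in neuroblasts, a ratio of 98.2 after scaling to library size (95% exact counting interval 27.0 to 814, which covers counting error alone). The fitted log2 change was 6.23 ± 1.23 (SE, edgeR adjusted p = 0.00929). The small-subunit gene mRpS26 stood at 86.0, 95.8 and 84.9 TPM against 0.430 and 2.40 TPM (log2 change 5.67 ± 1.2, edgeR adjusted p = 0.0128). Both kept their calls with any 1 of the 5 libraries compared left out. The top gene by level, mRpL55, stood at 102, 188 and 125 TPM against 4.72 and 2.20 TPM (log2 change 5.02 ± 1.13, edgeR adjusted p = 0.0158), and it lost its call without any 1 of the neuroblast libraries, with adjusted p at most 0.0779. A relative of a bacterial protein, mRpL33, stood at 126, 151 and 166 TPM against 3.34 and 1.04 TPM, with a log2 change of 5.74. Others that were higher are mRpS2 (6.19), mRpS16 (5.82), mRpL42 (4.44), mRpL16 (3.60), mRpL19 (3.54), mRpL46 (3.46) and mRpS7 (3.07), given as log2 changes. For mRpS16 and mRpS2, which overlap CG8331 and CG11927 on the opposite strand as mRpL42 overlaps cdc2rk, glia held 2 and 3 counts, and the ratios scaled to library size were 75.7 (95% exact counting interval 20.7 to 628) and 92.2 (31.4 to 449). Without any 1 of the 3 neuroblast libraries the count of called members was 2, where 206 to 227 of all genes tested were called higher.

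Among other mitochondrial genes, 1 of 30 translation genes was higher in neuroblasts than in glia, CG8257 (CysRS-m, a tRNA synthetase). Of 14 transcription and DNA maintenance genes, CG5924 (the mitochondrial DNA helicase) and mtTFB2, a transcription factor, were higher, and mtRNApol, the mitochondrial RNA polymerase, was lower with 43.4 against 255 CPM (library-scaled counts; log2 change -2.56 ± 0.46, edgeR adjusted p = 0.00603). With spike-in scaling the change of mtRNApol turned to 0.90. The calls of CG8257, CG5924 and mtTFB2 were lost without any 1 of the neuroblast libraries or glia library 2 (adjusted p up to 0.152, 0.176 and 0.144). Of 20 import genes, the receptor Tom20 (2.99), the chaperonin Hsp60 (2.43) and the channel Tom40 (1.67) were higher on the log2 scale and Tim17b1 was lower; with any 1 library left out only Hsp60 of these 4 kept its call in every fit (adjusted p of the others up to 0.0513, 0.114 and 0.0619). Cytoplasmic ribosomal protein genes were higher in 40 of 86 cases and lower in none, with a median log2 change of 0.87.

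In the comparison of neurons with glia, 9 of the 72 members (12.5%) were higher in neurons and none lower. The share called higher is near the 9.37% of all genes tested, of which 10.8% were lower. The median log2 change was 1.37 against -0.23 for all genes, with 51 members positive and 21 negative, and leaving out 1 library moved it between 0.65 and 2.73. Libraries did not overlap for 30 members that were higher in neurons and 4 that were lower, where the shares of all genes were 24.7% and 29.6%. This comparison shares its glia libraries with the former one. The level of mRpL40 was 71.0 and 102 TPM in neurons (log2 change 7.14 ± 1.3, edgeR adjusted p = 0.00652), and 262 counts stood against the 2 in glia, a ratio of 156 (95% exact counting interval 42.8 to 1295). For mRpS26 the neuron libraries gave 49.3 and 324 TPM, with a log2 change of 6.68, so the neurons differed more than 6-fold between themselves. The neuron levels of mRpS16 were 66.5 and 75.6 TPM (log2 change 6.50) and those of mRpL33 69.3 and 86.4 TPM (4.89). With mRpL55 (4.98) these 5 kept their calls with any 1 library left out. The other 4 did not: mRpL32, at 117 and 7.60 TPM in neurons and 1.51 and 0.469 TPM in glia (log2 change 5.90), lost its call without the first neuron library or either glia library (adjusted p up to 0.205). Likewise mRpS2 (5.72) lost its call in 3 of the 4 fits without 1 library, mRpL42 (4.63) in 3 and mRpS7 (2.84) in 2. Without the first neuron library the median of the members was 0.65 against -0.61 for all genes, and without the first glia library 2.73 against 0.06.

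Neurons and glia also differed in other mitochondrial lists, in both directions. Of the 30 translation genes none passed the test, and 4 reached an unadjusted p below 0.05. Of 14 transcription and DNA maintenance genes 4 were lower in neurons, namely tam, CG7175 (mTerf5), CG4538 (the ClpX chaperone) and mtRNApol. Each of these 4 calls was lost in 3 of 4 fits without 1 library (adjusted p up to 0.116), and those of tam, CG4538 and mtRNApol also with limma on log2(TPM + 1). Tom20 and Hsp60 were higher in neurons, with log2 changes of 2.30 and 1.90. The mitochondrial ribosomal protein genes tko and bonsai, which lie outside the naming rule, did not pass in any of the 3 cell type comparisons, and their log2 changes ranged from 0.90 to 3.03.

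**Figure D4:**
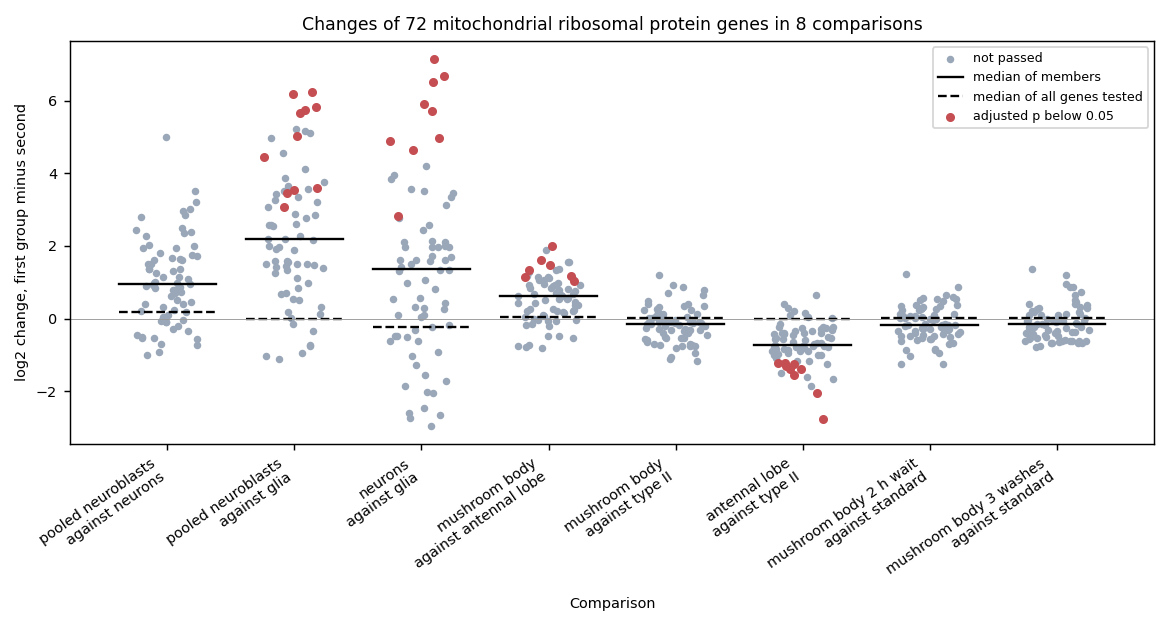
Log2 change of 72 mitochondrial ribosomal protein genes in 8 comparisons, first group minus second; red points were called at an adjusted p below 0.05, solid lines are medians of the members and dashed lines medians of all genes tested. Medians of the members stand at 2.19 for neuroblasts against glia, 0.63 for mushroom body against antennal lobe and -0.74 for antennal lobe against type II, and between -0.17 and -0.14 for the 3 other comparisons among neuroblasts.

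Within the neuroblasts, the question was how lineages differ, and the calls all placed antennal lobe neuroblasts below another lineage. In mushroom body against antennal lobe neuroblasts, 7 of 72 members were higher in the mushroom body and none lower, where 5.88% and 5.96% of the 9249 genes tested were called. The median log2 change was 0.63 against 0.03 for all genes, 57 members had a positive change, and libraries did not overlap for 27 members higher in the mushroom body and 2 lower (15.2% and 14% of all genes). In antennal lobe against type II neuroblasts none was higher and 9 lower in the antennal lobe (6.08% and 5.34% of all genes), the median was -0.74 against 0.00, and 20 members lay lower without overlap and none higher (14.6% and 15.2%). Both comparisons share the antennal lobe libraries. Mushroom body and type II neuroblasts were not told apart: no member was called in either direction (5.63% and 4.72% of all genes), 5 reached an unadjusted p below 0.05 (23.9% of all genes did), and the median log2 change was -0.14. There DESeq2 called 1 member lower (5.56% of all genes), and libraries did not overlap for 3 members higher and 8 lower (16.5% and 14.3%).

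The strongest case was mRpS25 (FBgn0030572, chromosome X, 14476169 to 14477015 in dm3), a mitochondrion-specific protein of the small subunit. It stood at 2.62, 4.44 and 8.46 TPM in antennal lobe neuroblasts, at 24.3, 22.1 and 18.1 TPM in mushroom body neuroblasts and at 45.6, 22.2 and 38.5 TPM in type II neuroblasts. No antennal lobe library reached the level of any other standard neuroblast library, pooled ones included (29.7, 47.4 and 72.2 TPM). The log2 change was 2.01 ± 0.61 for mushroom body minus antennal lobe (SE, edgeR adjusted p = 0.0313) and -2.76 ± 0.61 for antennal lobe minus type II (edgeR adjusted p = 0.00370). Both calls were lost with all 22 libraries in 1 fit, and the call against the mushroom body also with spike-in scaling. The call against type II held with any 1 library left out, and the other was lost without mushroom body library 1 or 2 or antennal lobe library 1 or 2 (adjusted p up to 0.121). It overlaps CG14414 on the opposite strand.

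For mRpL12, whose bacterial relative forms the flexible stalk that recruits translation factors, antennal lobe libraries gave 24.9, 20.1 and 43.0 TPM. Mushroom body libraries gave 90.9, 81.1 and 102 TPM and type II libraries 92.5, 79.7 and 55 TPM. The antennal lobe values lay below all of these, with log2 changes of 1.62 ± 0.38 (edgeR adjusted p = 0.00490) against the mushroom body and -1.38 ± 0.37 (edgeR adjusted p = 0.0179) against type II. The call against the mushroom body held with any 1 library left out, and that against type II was lost without libraries 1 or 2 of either group (adjusted p up to 0.0889). The mitochondrion-specific small-subunit gene mRpS35 was called in both comparisons as well, with 22.9, 19.6 and 44.0 TPM in the antennal lobe, 72.6, 70.7 and 50.2 TPM in the mushroom body and 66.3, 83.7 and 54.0 TPM in type II. Its log2 changes were 1.14 and -1.25, and each was lost without any 1 of 4 libraries (adjusted p up to 0.136).

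Some calls belonged to 1 comparison. The mitochondrion-specific large-subunit gene mRpL46 stood at 12.6, 11 and 27.5 TPM in antennal lobe and at 77.8, 60.8 and 73.9 TPM in type II neuroblasts (log2 change -2.06 ± 0.40, edgeR adjusted p = 0.00133), and this call held with any 1 library left out. In mushroom body neuroblasts mRpL46 stood between the others, at 48.9, 31.8 and 32.8 TPM. The gene mRpL27, whose bacterial relative reaches towards the peptidyl transferase centre, was narrow in the antennal lobe at 36.4, 33.0 and 30.6 TPM against 70.5, 73.3 and 88.1 TPM in type II (log2 change -1.23). Others lower in the antennal lobe than in type II were mRpL50 (-1.55), mRpL24 (-1.39), mRpS26 (-1.31) and mRpS18B (-1.21). Higher in the mushroom body than in the antennal lobe were mRpS9 (1.49), mRpL36 (1.35), mRpL54 (1.17) and mRpL1 (1.04). For mRpS9 the values were 69.0, 63.6 and 47.1 TPM in the mushroom body and 12.2, 18.8 and 32.2 TPM in the antennal lobe. A different order held for mRpL1, whose bacterial relative forms the stalk near the exit of spent tRNA: it stood at 88.1, 71.6 and 61.1 TPM in the mushroom body, above 53.5, 21 and 32.1 TPM in the antennal lobe and 50.4, 39.0 and 41.8 TPM in type II. Its change against type II did not pass (log2 change 0.72, edgeR adjusted p = 0.155).

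**Figure D5:**
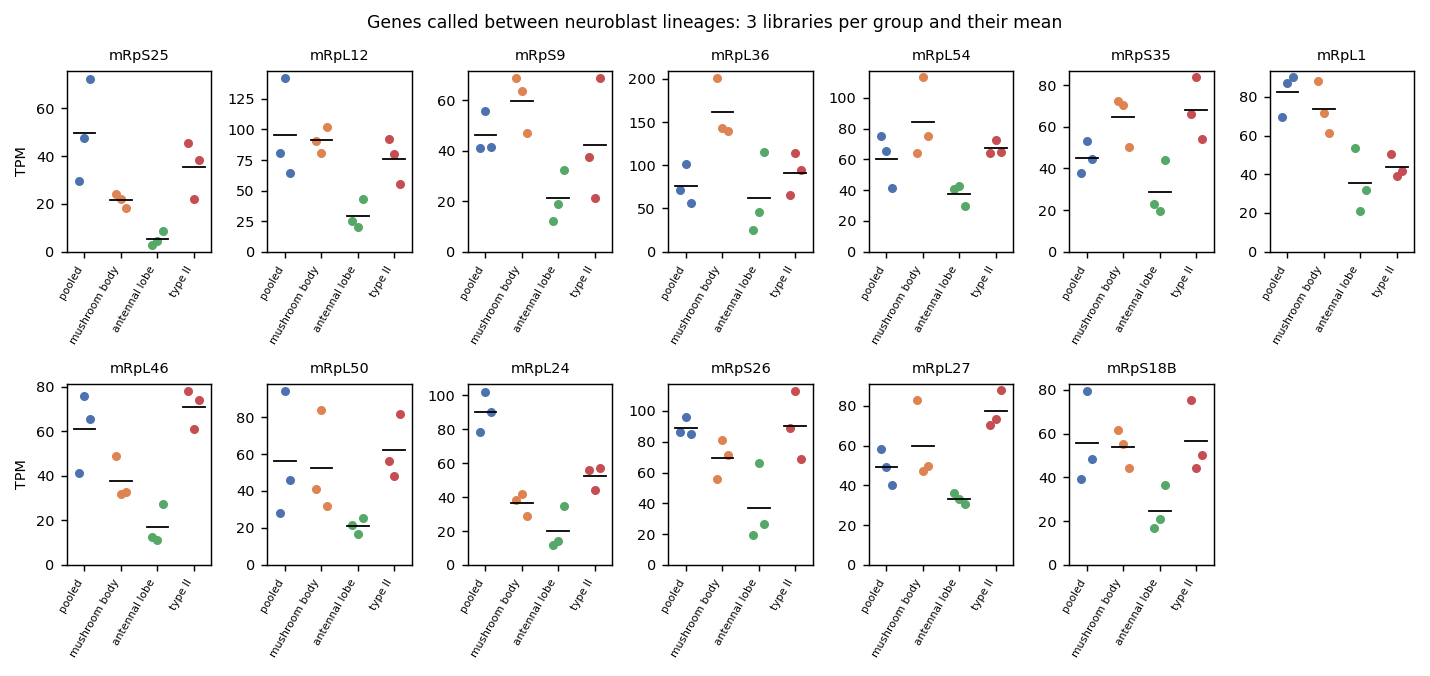
TPM of the 13 members called between neuroblast lineages, in the 3 libraries (points) of pooled, mushroom body, antennal lobe and type II neuroblasts, with the group mean as a line and each axis starting at 0. The antennal lobe points lie below those of the other lineages for mRpS25 (2.62 to 8.46 TPM) and mRpL12 (20.1 to 43.0 TPM).

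The number of lineage calls moved with single libraries and with the scaling. Between mushroom body and antennal lobe 7 members were higher (544 of 9249 genes tested). The count was 1 without mushroom body library 2 (325 of 9896 genes) and 2 without antennal lobe library 2 (367 of 9505). It was 3 without mushroom body library 1 (413 of 9972) or antennal lobe library 1 (342 of 9529). Without mushroom body library 3 it was 5 (389 of 9941), and without antennal lobe library 3 it was 10 (449 of 9568). Between antennal lobe and type II 9 members were lower in the antennal lobe (494 of 9249 genes tested). The count was 3 without antennal lobe library 1 (274 of 9529 genes), antennal lobe library 2 (308 of 9505) or type II library 1 (313 of 10054). It was 5 without type II library 3 (289 of 10045) and 8 without type II library 2 (362 of 10037). Without antennal lobe library 3 it was 13 (439 of 9568). With all 22 libraries in 1 fit no member was called in either comparison, where 1.35% of all genes were higher in mushroom body than in antennal lobe neuroblasts and 0.721% lower in antennal lobe than in type II neuroblasts. Of the called members, mRpL1, mRpL24, mRpL50, mRpS9 and mRpS25 overlap a gene on the opposite strand. Scaled by spike-in counts per cell, no member was called between mushroom body and antennal lobe, the median log2 change was 0.18 for the members and -0.36 for all genes. On that scale 53 members were lower in antennal lobe and 52 lower in mushroom body than in type II neuroblasts, where 34.4% and 55.7% of all genes were lower and the median log2 change of all genes was -1.06 and -1.44.

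Other mitochondrial lists were compared between the same lineages. Of 30 translation genes, CG5705 (mRF1, a release factor; log2 change 2.08) and EfTuM, the elongation factor that delivers tRNA (0.94), were higher in mushroom body than in antennal lobe neuroblasts. Lower in the antennal lobe than in type II were CG6412 (mEFTs, its exchange factor; -1.68), EfTuM (-0.81) and bonsai (-0.81). The median log2 change of the translation list was 0.34 and -0.36 in these comparisons. Of 19 import genes, 7 were higher in the mushroom body and 1, Tom40 (-0.59), lower; the higher genes include the co-chaperone Roe1 (1.77), Tom7 (1.56), the receptor mge (0.86) and the mitochondrial Hsp70 Hsc70-5 (0.86). Against type II, 6 were lower and 1 higher in the antennal lobe, the latter being Tim17a1 (2.71). The RNA-binding gene bsf was higher in the mushroom body (0.84) and lower in the antennal lobe than in type II (-0.61, lost with limma on log2(TPM + 1)), as was the termination factor mTTF in the latter comparison (-1.34).

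The genes of the cytoplasmic ribosome, which makes the mitochondrial ribosomal proteins, were set beside these. Of 86 tested, 66 were higher in mushroom body than in antennal lobe neuroblasts and none lower. In mushroom body against type II neuroblasts 46 were higher and none lower, where no mitochondrial ribosomal gene was called. In antennal lobe against type II 1 was higher and 7 lower. The medians of the log2 change were 0.68, 0.44 and -0.17 for the cytoplasmic genes and 0.63, -0.14 and -0.74 for the mitochondrial ones. The cytoplasmic genes made up 21.1 ± 1.87% of TPM in mushroom body, 14.2 ± 1.17% in antennal lobe and 15.6 ± 1.75% in type II neuroblasts (SD, n = 3). They made up 16.5 ± 0.772% in pooled neuroblasts. In mushroom body neuroblasts they made up 16.1 ± 2.43% after the 2 h wait and 13.7 ± 2.21% after 3 washes. Each standard mushroom body library lay above every library of these 2 handling groups, so the high share was not seen throughout that lineage. The difference between the lists was not tested.

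Handling of mushroom body neuroblasts was the last comparison, and it left the mitochondrial ribosomal protein genes without a call. Summed levels were 3766, 3762 and 3116 TPM after the 2 h wait and 3486, 3339 and 3773 TPM after 3 washes. The groups overlapped the standard libraries (3150 to 4141 TPM), with 1 library of the wait below the lowest of them. With edgeR, 0 of 72 members were called after the wait (0% of all 8766 genes higher and 0.0228% lower) and 0 after the washes (0.160% and 0.673%). Unadjusted p fell below 0.05 for 2 and 4 members (8.29% and 8.19% of all genes), and DESeq2 called none. The medians of the log2 change were -0.17 and -0.14 against 0.01 for all genes in each. Libraries did not overlap for 3 members higher and 3 lower after the wait (6.63% and 7.12% of all genes) and for 4 and 8 after the washes (6.97% and 7.81%). With spike-in scaling 10 members were called higher after the washes, where 24.3% of all genes were called higher and the median log2 change of all genes was 0.77; the 10 are a smaller share than that. Of the cytoplasmic ribosomal protein genes 46 of 86 were lower after the washes with edgeR, with a median log2 change of -0.65. With limma on log2(TPM + 1) no gene of any kind was called in that comparison, and the difference between the lists was not tested.

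The members with the smallest p in these comparisons were named after their values were seen. After the wait this was mRpS16, at 91.6, 47.2 and 95.4 TPM against 31.4, 31.3 and 39.0 TPM in the standard libraries, without overlap (log2 change 1.22 ± 0.45, edgeR adjusted p = 0.442). After the washes it was mRpS11, at 69.2, 106 and 104 TPM against 47.7, 43.7 and 62.8 TPM, also without overlap (log2 change 0.86 ± 0.36, edgeR adjusted p = 0.489). Neither passed the test.

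Over all 8 comparisons, 23 of the 72 tested members were called at least once, 11 of them in 1 comparison and 11 in 2. The like share of all genes over the 8 comparisons was not computed, so the 23 are not a result about the members. In pooled neuroblasts against neurons alone, 10.2% of all genes were called higher and 14.5% lower. The member called in 3 was mRpS26, which was higher in neuroblasts and in neurons than in glia and lower in antennal lobe than in type II neuroblasts. Among the 18 neuroblast libraries it ranged from 19.2 to 113 TPM. The other 49 passed in no comparison. The comparisons share libraries, so these counts are not independent of each other.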

How the data were processed

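Per-gene counts were deposited by the authors, together with their TPM, which divide by length. The submitters' processing notes name CASAVA, STAR 2.4.0i, Bowtie2 2.1.0, HTSeq 0.6.1p1 and cutadapt 1.7.1 without an order, and 2 builds, dm3 and mm10, the latter without a role. RNA was extracted from small cell pools and amplified before library construction, per the labels' protocols.

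Tests on counts used the robust quasi-likelihood method of edgeR 4.0.16 (R 4.3.3) after filterByExpr and TMM scaling, in 3 fits: pooled neuroblasts, neurons and glia (7 libraries), 4 standard neuroblast groups (12) and 3 mushroom body groups (9). The biological coefficient of variation was 0.796, 0.406 and 0.415 in these fits. Adjusted p-values run over all genes of a fit, and the script was tested on simulated data. Levels and ranks are TPM. Alternatives used DESeq2 1.42.0, limma 3.58.1 on log2(TPM + 1), other scalings and left-out libraries. In each comparison up to 10 called members per direction with the largest change were named, also the 6 highest and 6 lowest by mean TPM and up to 4 called genes of each other list. The members and lists were chosen with earlier results of these data known. Same-numbered libraries of different groups deviated from their group means with correlations of -0.07 to 0.11, so numbers were not used as pairs. Replicate libraries differed by more than sampling noise in every pair (chi-square over degrees of freedom at least 9.75). Exact intervals and the floor of 3 counts cover counting error alone. Mitochondrially encoded genes, sequences and promoter motifs were not analysed here.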

Additional observations from a re-analysis of the deposited data

How the results depend on the processing

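Beside the counts of called members with edgeR (neuroblast against neuron 0, neuroblast against glia 11, neuron against glia 9, mushroom body against antennal lobe 7, mushroom body against type II 0, antennal lobe against type II 9), other settings gave other counts, and the cause was not tested. With spike-in counts per cell, 17, 61 and 29 members were higher in the 3 cell type comparisons. Of all 9855 genes, 3301, 5648 and 2789 were. In mushroom body against antennal lobe 0 were higher (70 of 9249 genes), and 10 after the washes (2126 of 8766 genes). In mushroom body and antennal lobe 52 and 53 were lower than in type II (5155 and 3179 of 9249 genes). That scaling moves the median of all genes to 1.94, 3.45 and 1.52 in the cell type comparisons. It also turned the sign of mtRNApol against glia (0.90) and, in mushroom body against type II, of RpL18 (-0.70), RpL39 (-0.68) and RpL37A (-0.67). limma on log2(TPM + 1), on log2(TPM + 0.1) and with no filter gave 10, 7 and 8 higher members against neurons. Of all 11061, 11061 and 13124 genes it called 1624, 1652 and 1531 higher there. Against glia it gave 30, 29 and 29 (1448, 1327 and 1335 of all genes). For neurons against glia it gave 14, 13 and 13 higher (1376, 1311 and 1307) and 2, 1 and 2 lower (1222, 1223 and 1176). For mushroom body against antennal lobe it gave 15, 15 and 11 (556, 523 and 510 of 10209, 10209 and 13659 genes). Against type II it gave 2, 1 and 1 lower in mushroom body (388, 377 and 342) and 15, 14 and 10 lower in antennal lobe (453, 431 and 374). DESeq2 gave 6, 28 and 15 higher in the cell type comparisons, where 1525, 1272 and 1543 of 9855 genes were higher. It gave 3 lower for neurons against glia (1808 of all genes). For mushroom body against antennal lobe it gave 12 higher, and for mushroom body against type II 1 lower (729 and 514 of 9249 genes). For antennal lobe against type II it gave 12 lower (586 of 9249 genes). With all 22 libraries in 1 fit the counts were 14, 37 and 22 higher with 3 lower, and 0 for both antennal lobe comparisons. Of 11240 genes, 2475, 2151 and 1936 were higher in the cell type comparisons and 2682 lower in the last. With spike-in scaling, limma, DESeq2 and this fit, the count of members against neurons lay under the share of all genes. A replicate block has no support from the labels. With it, 1 member was higher against glia and 2 in neurons against glia (203 and 598 of 9855 genes). Mushroom body against antennal lobe gave 8 higher and antennal lobe against type II 9 lower (530 and 480 of 9249 genes). Of the libraries, 0 of 7, 5 of 12 and 1 of 9 correlated best with their own number. Among the 7, pooled neuroblast library 3 had no neuron or glia library of its number to match. With 2 libraries in a group the deviations are mirror images, so the 0 of 7 says little about pairs. Leaving out 1 library gave 0 to 4, 2 to 14 and 7 to 13 higher members in the cell type comparisons (0 to 2 lower in the last), 1 to 10 for mushroom body against antennal lobe and 3 to 13 lower for antennal lobe against type II. Without CR41602 and CR40677 the summed levels relative to pooled neuroblasts were 0.70 in neurons and 0.375 in glia. Neurons and glia have 2 libraries each, so their calls rest on a spread shared with neuroblasts, and where 1 is left out the other is assumed to vary like the remaining groups. The planned promoter motif search was not run.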

Other observations

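The gene tko, which encodes the small-subunit protein related to bacterial ribosomal protein S12 and carries a name outside the rule, stood at 19.2 ± 6.23 CPM in mushroom body, 15.2 ± 5.44 CPM in antennal lobe and 24.1 ± 4.72 CPM in type II neuroblasts (SD, n = 3). Its changes between lineages did not pass (edgeR adjusted p = 0.663, 0.664 and 0.291). The gene bonsai stood at 47.0 ± 3.75, 33.1 ± 2.79 and 57.9 ± 3.67 CPM in the same groups and was lower in antennal lobe than in type II neuroblasts (log2 change -0.81 ± 0.22, edgeR adjusted p = 0.0202).

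The order of the 73 genes by mean TPM was compared between groups. Spearman's rho across genes was 0.865 between the mushroom body groups of the wait and of the washes, 0.815 between pooled and type II neuroblasts and 0.649 between pooled and antennal lobe neuroblasts. It was 0.507 between pooled neuroblasts and neurons, 0.242 between pooled neuroblasts and glia and -0.09 between neurons and glia. These are descriptions across genes, which are not independent replicates.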
